A study of Mus musculus with 4 samples.

Results

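T cell receptor engagement switches on a small set of transcription factors within minutes to hours, and 10 of them were followed in CD8+ T cells recovered from mouse melanomas. They are the orphan nuclear receptors *Nr4a1*, *Nr4a2* and *Nr4a3*, the zinc-finger factors *Egr1*, *Egr2* and *Egr3*, the calcium-regulated factor *Nfatc1*, and the AP-1 subunits *Fos*, *Jun* and *Junb*. The 10 genes were chosen by name from 15981 genes listed in at least 1 of the deposited tables, with earlier results of these data known. All 10 were found.

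The cells were Thy1.1+ Pmel-1 CD8+ T cells, which carry a transgenic receptor for the melanoma antigen gp100, so both groups had the same receptor. The study primed T cells with antibodies to CD3 and CD28 or, in part of its experiments, with gp100 peptide, and does not say which was used for these cells. Tc1 cells were grown with IL-2, and Tc9 cells were polarized with IL-4, TGF-β and an antibody that neutralizes IFN-γ, before both were kept in medium with IL-2 to the end of a culture of 5 days. Both were injected into Thy1.2+ C57BL/6 mice with subcutaneous B16 melanomas of 10 days, with cyclophosphamide, dendritic cells and IL-2 given to both groups. The cells were sorted from the tumors 14 days after transfer. RNA of 6 mice, with no word on whether per group or in all, was pooled into 2 libraries per group, so the spread between libraries is that between pools, and neither the number of mice in a pool nor their age is known. The groups differ in the cytokines of the culture and in the state of the cells that persisted in the tumor, and these cannot be told apart. In bulk RNA, fewer cells that express a gene and less RNA per cell cannot be told apart either.

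Each library has a table of expected counts (estimated reads per gene) and FPKM (fragments scaled by transcript length and library size). The tables list genes by numeric identifier and reach different points in that order. None of the 10 genes lies in the part reached by the table of Tc1 replicate 1. Tc1 replicate 2 and Tc9 replicate 2 cover all 10, and Tc9 replicate 1 covers 7, which leaves out *Nr4a2*, *Nr4a3* and *Nfatc1*. Depth lay between 30822953 and 31927162 counts per library, at which 3 counts correspond to 0.0940 to 0.0973 CPM (counts scaled by library size). The 7 genes were tested with edgeR's quasi-likelihood test across all 2622 genes that passed a filter on low counts in 3 libraries, and the single Tc1 library was assumed to vary as the Tc9 libraries do. For the other 3 there is 1 library per group, so a ratio with its 95% counting interval is given and no p-value. Such intervals cover counting error only. An exact permutation test of 1 library against 2 cannot give a p below 0.333. The labels were checked with *Il9*, the cytokine that names Tc9 cells, with 2601 and 2667 counts in the Tc9 libraries against 3 in Tc1 replicate 2.

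These factors are immediate or early response genes. Calcium entry activates calcineurin, which lets NFAT proteins enter the nucleus. The Ras, ERK and JNK kinases act through serum response factor (SRF) and its partners and through AP-1. EGR and NR4A genes lie downstream of both arms, and in T cells *Egr2*, *Egr3* and the NR4A receptors are known for restraining the response when stimulation is prolonged or lacks costimulation. Transcripts of several of these genes are short-lived.

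Of the 10 genes, *Egr2* stood apart. It was about 8-fold higher in Tc9 than in Tc1 cells, while its relatives *Egr1* and *Egr3* and the AP-1 subunits *Fos*, *Jun* and *Junb* had lower values in the Tc9 libraries, none of which passed the test. The promoter sequences of *Egr2* are shown first because this gene carried the difference, and those of *Nr4a1* and *Nr4a2* because they hold sites for EGR proteins. The 250 bases before the annotated start were taken from RefSeq (GRCm38.p6, the build that mm10 names) and searched on both strands for 7 motifs. Windows that overlap an exon are not shown, *Egr3* had no entry in the promoter table, and the windows of *Egr1* and *Nfatc1* were not analysed here. Capitals mark every match found. In the first *Egr2* window, chr10:67537619-67537868 on the plus strand, the capitals are a CArG box, the site bound by SRF, 72 to 63 bases before the start. The window lies in an intron of a longer *Egr2* transcript, overlaps no exon, and 3 GENCODE transcripts begin within 50 bases of its start site. In the second, chr10:67537316-67537565 on the same strand, the capitals are the NFAT core in its reverse orientation, 133 to 128 bases before another annotated start, and a second CArG box. This window also lies inside a longer transcript and in no exon, and 0 GENCODE transcripts begin within 50 bases of its start site.
Egr2 (start 67537869): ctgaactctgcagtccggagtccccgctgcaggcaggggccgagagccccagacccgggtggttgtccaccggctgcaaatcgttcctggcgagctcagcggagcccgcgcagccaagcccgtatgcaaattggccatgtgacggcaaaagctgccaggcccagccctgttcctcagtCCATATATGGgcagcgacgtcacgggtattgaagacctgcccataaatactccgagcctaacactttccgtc
Egr2 (start 67537566): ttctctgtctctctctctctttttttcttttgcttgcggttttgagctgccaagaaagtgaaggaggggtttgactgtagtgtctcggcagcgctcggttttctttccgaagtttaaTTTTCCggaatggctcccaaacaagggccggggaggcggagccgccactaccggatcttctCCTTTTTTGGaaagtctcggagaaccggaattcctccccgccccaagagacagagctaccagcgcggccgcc
Of 32851 promoter windows of this length, 1.47% hold a CArG box, and 20.4% hold the NFAT core GGAAAA. The windows of *Nr4a1* (chr15:101266596-101266845, plus strand, inside a longer transcript but in no exon) and *Nr4a2* (chr2:57124004-57124253, minus strand, outside annotated transcripts) each hold 1 EGR site, GCGNGGGCG in either orientation, which 4.7% of all windows hold.
Nr4a1: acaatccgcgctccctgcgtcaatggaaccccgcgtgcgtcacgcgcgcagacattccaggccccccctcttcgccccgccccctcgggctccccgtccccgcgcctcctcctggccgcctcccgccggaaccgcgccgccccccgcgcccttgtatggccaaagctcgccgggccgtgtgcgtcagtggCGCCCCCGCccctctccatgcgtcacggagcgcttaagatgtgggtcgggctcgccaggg
Nr4a2: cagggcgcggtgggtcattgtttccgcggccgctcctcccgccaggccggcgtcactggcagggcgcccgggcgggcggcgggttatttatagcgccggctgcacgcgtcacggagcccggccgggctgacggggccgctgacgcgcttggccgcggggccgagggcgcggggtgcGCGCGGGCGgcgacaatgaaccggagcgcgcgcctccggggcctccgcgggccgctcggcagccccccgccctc
The EGR site lies 60 to 52 bases before the start of *Nr4a1* and 74 to 66 bases before that of *Nr4a2*. The other motifs were the cAMP response element TGACGTCA (1.55% of all windows), the AP-1 site TGACTCA or TGAGTCA (4.46%), the NR4A site AAAGGTCA (1.34%) and the STAT site TTCNNNGAA (7.02%), and none of them was matched in these 4 windows. The windows of *Nr4a3*, *Jun*, *Junb* and *Fos* matched none of the 7. A match describes letters only and shows no binding.

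*Egr2* encodes a zinc-finger factor that limits T cell activation and takes part in anergy. The gene (identifier 13654) spans chr10:67534469-67542188. It had 149 counts in Tc1 replicate 2, 1079 in Tc9 replicate 1 and 1342 in Tc9 replicate 2. Its FPKM was 1.71 in the Tc1 library and 12.79 and 15.88 in the Tc9 libraries. Both Tc9 libraries lay far above the Tc1 library, and the difference of 0.31 in log2 CPM between them was small beside it. The log2 fold change was 3.02 ± 0.28 (SE), an 8.12-fold higher level, with an adjusted p of 0.00302 (edgeR quasi-likelihood test, Benjamini-Hochberg over 2622 genes). Against the Tc1 library, the log2 ratio was 2.84 (95% counting interval 2.61 to 3.10) for Tc9 replicate 1 and 3.15 (2.93 to 3.42) for Tc9 replicate 2. In the test of 3 libraries, 10.7% of all genes were called, 7.51% higher and 3.2% lower in Tc9 cells. *Egr2* ranked 67 of 2622 by log2 fold change and 31 by p. Of the genes with a log2 fold change at least as large, 11, with *Egr2* among them, had 1000 or more counts in a library. The low value rests on 1 Tc1 library. In the part of the tables that all 4 libraries reach, the 2 Tc1 libraries differed by as much as the *Egr2* fold change in 1 of 1284 genes, and by at least 1 log2 unit in 13. Without the filter on low counts, the *Egr2* fold change stayed at 3.02 but its adjusted p was 0.202, and no gene was called by edgeR. In that fit, 598 genes had an unadjusted p under 0.05, and DESeq2 with the filter called 338.

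**Figure D1:**
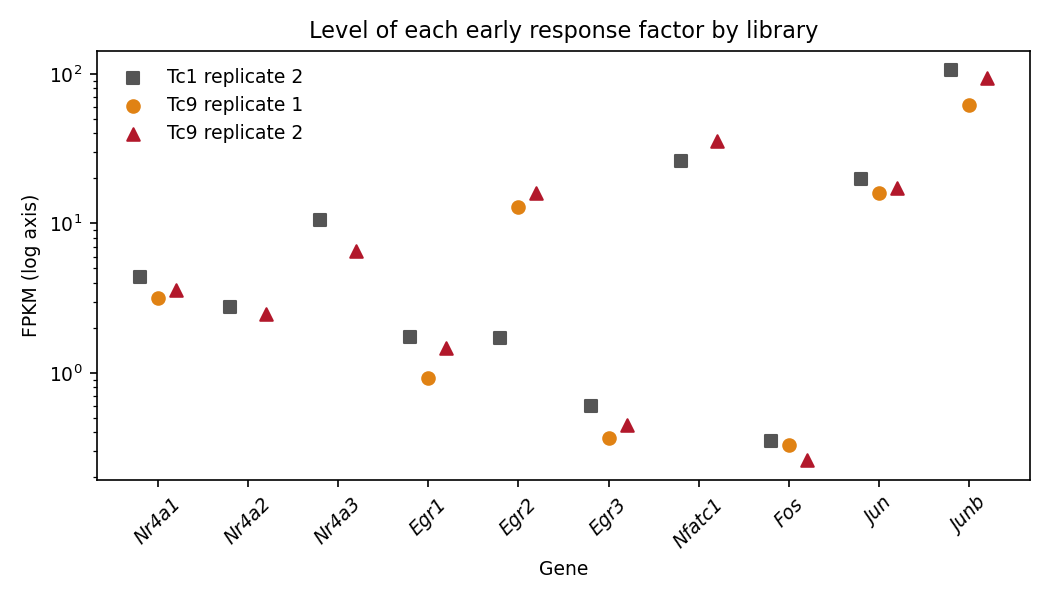
FPKM (log axis) of the 10 factors in each library that covers the gene, with 1 point per library. *Egr2* rises from 1.71 in the Tc1 library to 12.79 and 15.88 in the Tc9 libraries, a wider gap than in any of the other 9 genes.

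*Egr1*, an immediate early gene in many cell types, had 163 counts in Tc1 replicate 2, 85 in Tc9 replicate 1 and 132 in Tc9 replicate 2. The Tc9 libraries lay below the Tc1 library and 0.62 apart in log2 CPM, close to the size of the fold change. The log2 fold change of *Egr1* was -0.59 ± 0.32 (SE; edgeR with Benjamini-Hochberg adjustment, adjusted p = 0.300). *Egr3* shares targets with *Egr2* and restrains T cell activation together with it. It had 72 counts in the Tc1 library and 43 and 52 in the Tc9 libraries, again with both Tc9 libraries below. Its log2 fold change was -0.60 ± 0.31 (SE, adjusted p = 0.283 by edgeR with Benjamini-Hochberg adjustment). Neither gene was called.

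The makeup of the EGR family differed between the groups. On the FPKM scale, which allows genes of different length to be compared, *Egr1* (1.74) and *Egr2* (1.71) had nearly the same level in Tc1 replicate 2, and their counting intervals (1.48 to 2.03 and 1.45 to 2.01) overlapped. *Egr2* made up 42.2% of the summed FPKM of the 3 EGR genes in the Tc1 library, 90.8% in Tc9 replicate 1 and 89.3% in Tc9 replicate 2. *Egr1* made up 43.0%, 6.60% and 8.21% of it. The summed level of the family was 4.05 FPKM in the Tc1 library and 14.09 and 17.79 in the Tc9 libraries, and the change in the sum came from *Egr2*. Of the partners of the family, *Egr4* was not listed in any table and *Ddx20* was reached by Tc9 replicate 2 only. The corepressors *Nab1* and *Nab2*, which bind EGR proteins and are themselves EGR targets, were covered by the replicate 2 libraries. *Nab1* had 2301 counts in Tc1 and 2043 in Tc9 cells (log2 ratio -0.17, 95% counting interval -0.26 to -0.08), and *Nab2* had 1765 and 1154 (-0.61, -0.72 to -0.51). Both ratios lay within the spread between Tc9 libraries (0.73 log2 units for 95% of genes). Among genes that all 4 libraries reach, the spread was 0.67 between Tc9 and 0.52 between Tc1 libraries, and the *Nab2* ratio exceeds only the latter.

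**Figure D2:**
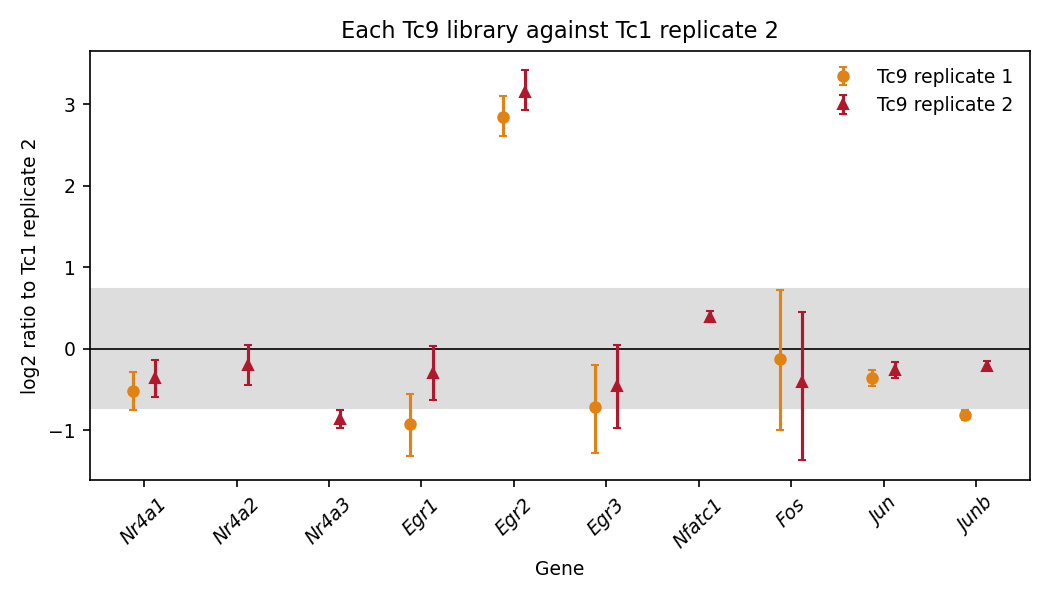
Log2 ratio of each Tc9 library to Tc1 replicate 2 for the 10 factors, with bars for 95% counting intervals and a gray band for the spread between Tc9 libraries (0.73 to either side of 0). *Egr2* lies near 3 in both Tc9 libraries, *Nfatc1* at 0.39, and the other 8 genes below 0 in each Tc9 library that covers them.

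The NR4A receptors are nuclear receptors without a known physiological ligand whose activity follows their transcript level, and all 3 are linked to dysfunction of tumor-infiltrating CD8+ T cells. *Nr4a1* (Nur77), widely used as a reporter of receptor signaling, had 352 counts in Tc1 replicate 2, 245 in Tc9 replicate 1 and 273 in Tc9 replicate 2. Both Tc9 libraries were below the Tc1 library and close to each other, 0.16 apart in log2 CPM. The log2 fold change of *Nr4a1* was -0.44 ± 0.22 (SE, adjusted p = 0.263 by edgeR with Benjamini-Hochberg adjustment). *Nr4a2* (Nurr1) had 275 counts in the Tc1 and 239 in the Tc9 library, and the log2 ratio was -0.20, whose counting interval (-0.45 to 0.048) included 0. *Nr4a3* (NOR-1) had 1819 and 996 counts, a log2 ratio of -0.87 (-0.98 to -0.76).

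*Nr4a3* was the one member with a lower value in Tc9 replicate 2 whose ratio exceeded the spread between Tc9 libraries. Over the genes tested in 3 libraries, 95% of the differences between the 2 Tc9 libraries were within 0.73 log2 units. Of 6160 genes that passed the filter in the replicate 2 libraries, 8.73% lay beyond that size on the lower side. In Tc9 replicate 1, which does not cover *Nr4a3*, the log2 ratios of *Egr1* (-0.92) and *Junb* (-0.81) to the Tc1 library were also beyond it. On FPKM, *Nr4a3* had 10.55 in Tc1 and 6.53 in Tc9 cells. On log2(FPKM + 0.1) the log2 ratio was -0.68. This is smaller in size than 0.73, but that spread was taken on log2 CPM, and none was computed on FPKM. The ratio on FPKM differs from the ratio of counts in more than 1 choice. It adds 0.1 to each FPKM, uses no TMM factors (leaving them out of the ratio of counts gave -0.82), and divides by a transcript length that was 5525 bases in the Tc1 and 5085 bases in the Tc9 library. The tables sum 5 transcripts of this gene, 2 from RefSeq and 3 under other names. *Nr4a3* was the most abundant receptor of the family in both libraries, with 59.7% of the summed FPKM of the 3 NR4A genes in Tc1 and 51.9% in Tc9 cells. *Nr4a1* made up 24.7% and 28.4%, and *Nr4a2* 15.6% and 19.7%. The order of the 3 receptors was the same in both libraries, and the summed level was 17.68 FPKM in Tc1 and 12.57 in Tc9 cells.

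*Nfatc1* encodes the NFAT protein that is itself induced by receptor signaling through a positive feedback loop. It was, with *Egr2*, one of 2 members with a higher value in the Tc9 library. The replicate 2 libraries held 3655 counts for Tc1 and 4798 for Tc9, so that the log2 ratio was 0.39 (0.33 to 0.46), which lies within the spread between Tc9 libraries. Its FPKM was 26.0 in Tc1 and 35.59 in Tc9 cells. The constitutively expressed relatives had smaller ratios, 0.24 for *Nfatc2* (5525 and 6523 counts) and 0.07 for *Nfatc3* (7360 and 7729 counts). The 6 RefSeq transcripts of *Nfatc1* are summed in the tables, so the short inducible isoform cannot be told from the long ones.

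AP-1 is a dimer of a Jun with a Fos or another leucine-zipper protein, and NFAT and AP-1 bind together at many cytokine genes. *Junb*, the highest of the 3 AP-1 members by FPKM, had 5733 counts in Tc1 replicate 2, 3266 in Tc9 replicate 1 and 4960 in Tc9 replicate 2. Both Tc9 libraries were lower, by unequal amounts, 0.60 apart in log2 CPM. The log2 fold change of *Junb* was -0.48 ± 0.29 (SE, adjusted p = 0.348 by edgeR with Benjamini-Hochberg adjustment). *Jun* had 1928, 1504 and 1609 counts in the same order, with the Tc9 libraries 0.10 apart. Its log2 fold change was -0.31 ± 0.21 (SE, adjusted p = 0.387 by the same test). *Fos*, whose transcript is among the shortest-lived, was near the limit of detection of a difference, with 22, 20 and 16 counts. Its log2 fold change of -0.29 ± 0.43 (SE, adjusted p = 0.707 by edgeR with Benjamini-Hochberg adjustment) is smaller than its error. No difference was detected, and a small one could not be seen at these counts.

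The AP-1 families are described with their other subunits, which were named here after their values were seen, except *Fosb*. *Fosb* fell from 107 counts in Tc1 replicate 2 to 27 in each Tc9 library, a log2 fold change of -1.98 ± 0.30 (SE, adjusted p = 0.0133 by edgeR with Benjamini-Hochberg adjustment). *Fosl2* had 429 counts in the Tc1 library and 764 and 861 in the Tc9 libraries, with a log2 fold change of 0.92 ± 0.22 (SE) that just missed the threshold (adjusted p = 0.0549 by edgeR with Benjamini-Hochberg adjustment). *Fosl1*, *Jund* and *Atf3* were not called. Of 10 tested genes among the other AP-1 and related factors, edgeR called 0 higher and 1 lower, and DESeq2 called 1 higher and 1 lower. Over all 2622 genes in 3 libraries, DESeq2 called 217 higher and 121 lower. *Fosl1* held 48.2% and *Fosl2* 34.0% of the summed FPKM of the 4 Fos genes in Tc1 replicate 2. In the Tc9 libraries the order was the other way round, with *Fosl2* at 65.4% and 61.4% and *Fosl1* at 26.0% and 32.3%. *Fos* itself held 3.28% to 5.11% in the 3 libraries. Of the summed FPKM of the 3 Jun genes, *Junb* held 51.1% in the Tc1 library and 38.1% and 37.1% in the Tc9 libraries. *Jund* held 39.3% in the Tc1 library and 52.1% and 56.2% in the Tc9 libraries. *Jun* held 9.57% in the Tc1 library and 9.78% and 6.71% in the Tc9 libraries. These shares were not tested.

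**Figure D3:**
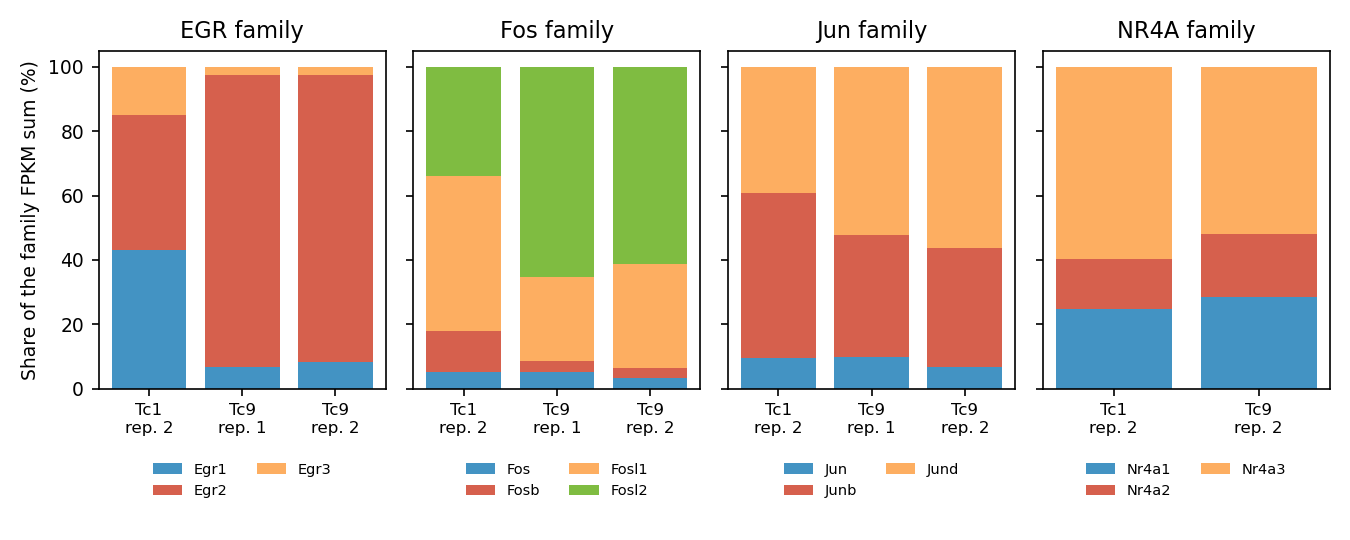
Share (%) of each gene in the summed FPKM of its family, 1 bar per library (rep., replicate). *Egr2* takes 42.2% of the EGR sum in the Tc1 library and 90.8% and 89.3% in the Tc9 libraries, and *Junb* takes 51.1% of the Jun sum in the Tc1 library and 38.1% and 37.1% in the Tc9 libraries.

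Across the members, levels spanned a wide range. In Tc1 replicate 2 the order by FPKM was *Junb*, *Nfatc1*, *Jun*, *Nr4a3*, *Nr4a1*, *Nr4a2*, *Egr1*, *Egr2*, *Egr3* and *Fos*, from 105.8 to 0.35. In Tc9 replicate 2 the order of the other 9 genes was the same, and *Egr2* moved from rank 8 to rank 4 of 10. Neighbours whose counting intervals overlapped were *Egr1* with *Egr2*, and *Egr3* with *Fos*, in Tc1 replicate 2. In Tc9 replicate 2 they were *Jun*, with an interval starting at 16.3 FPKM, with *Egr2*, with one ending at 16.8, and, again, *Egr3* with *Fos*. Over both Tc9 libraries, the FPKM of *Egr2* (12.79 and 15.88) and of *Jun* (15.86 and 17.13) also overlapped.

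Of the 7 members tested, 1 (*Egr2*) was called higher in Tc9 cells and 0 were called lower by edgeR, and 0 were called lower by DESeq2. At an unadjusted p under 0.05 the count was again 1 and 0. Of the same 7, 6 lay below Tc1 replicate 2 in both Tc9 libraries, against 37.8% of all genes tested, and 1 lay above in both, against 44.0%. The adjusted p of those 6 ran from 0.263 to 0.707 (edgeR with Benjamini-Hochberg adjustment), and the comparison of all 7 shares the single Tc1 library. The median log2 fold change of the 7 was -0.44, beside 0.05 for all genes tested. In the replicate 2 libraries, 8 of 10 members had a lower and 2 a higher value in Tc9 cells, against 47.6% and 52.4% of 6160 genes. Their median log2 ratio was -0.28, beside 0.03 for all. One member was at least 2-fold higher and 0 at least 2-fold lower, against 10.5% and 4.72% of genes.

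**Figure D4:**
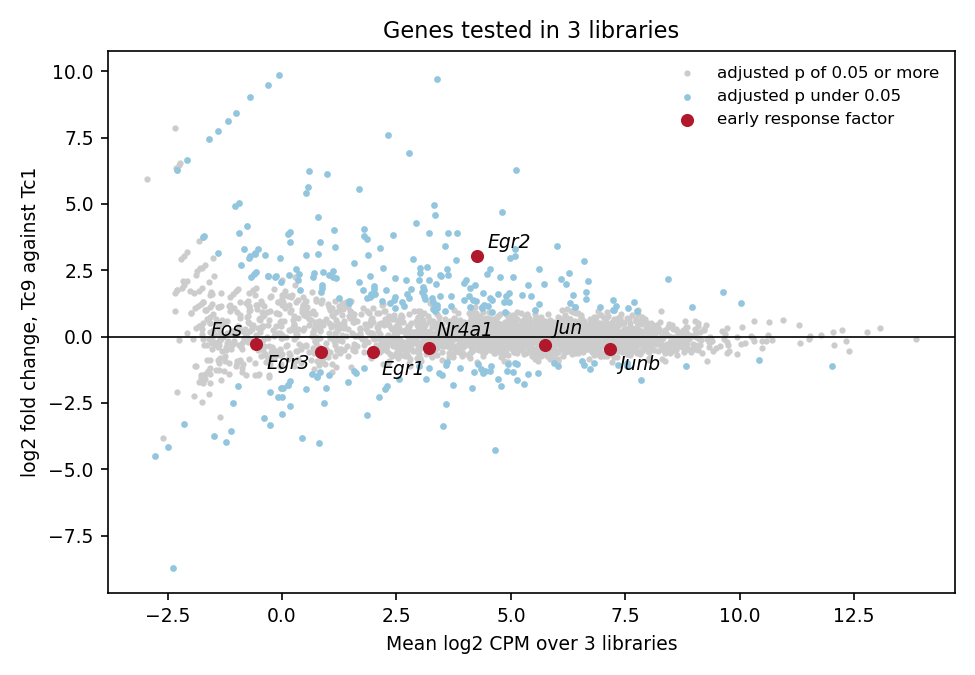
Log2 fold change (Tc9 against Tc1) by mean log2 CPM for the 2622 genes tested in 3 libraries. The 7 tested factors are marked in red. *Egr2* lies at 3.02 among the called genes, and the other 6 lie between -0.60 and -0.29 among the genes not called.

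The other genes of the receptor response did not move in 1 direction. Some of them were covered by all 4 libraries, where 34.1% of 1284 genes were called, 17.4% higher and 16.7% lower. Of 18 tested genes among 42 other receptor-induced early genes, 4 rose, 5 fell and 9 did not pass the test. *Irf4*, a factor induced in proportion to receptor signal strength, rose from 18150 counts in Tc1 replicate 2 to 44730 and 42747 counts in Tc9 cells (log2 fold change 1.27 ± 0.20, SE, adjusted p = 0.0148 by edgeR with Benjamini-Hochberg adjustment). *Id3*, a known EGR target that inhibits E proteins, rose by 1.08 ± 0.25 on the log2 scale (SE, adjusted p = 0.0481 by the same test), a call lost with DESeq2 (adjusted p = 0.0747). The RNA-binding proteins *Zfp36l1* and *Zfp36l2* also rose. *Cd69*, an early surface marker of activation, fell from 1232 and 1108 counts in Tc1 to 511 and 449 in Tc9 cells (log2 fold change -1.28 ± 0.13, SE, adjusted p = 6.23e-05 by edgeR with Benjamini-Hochberg adjustment). The cytokine gene *Ifng* fell from 15303 to 5097 and 4700 counts, and the chemokine gene *Xcl1* from 1367 to 394 and 313. *Ier5* and *Btg2* also fell, the latter not with DESeq2 (adjusted p = 0.101). IFN-γ is the cytokine by which Tc1 cells are defined, and an antibody to it was part of the Tc9 culture. The part of that antibody in the *Ifng* values, taken 14 days after transfer, was not tested.

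Among 20 genes of this list that the replicate 2 libraries alone cover, 0 were at least 2-fold higher and 3 at least 2-fold lower in Tc9 cells. Of all 6160 genes past the filter in these libraries, 10.5% were at least 2-fold higher and 4.72% at least 2-fold lower. The 3 lower genes of the list were the chemokines *Ccl3* (830 and 53 counts, log2 ratio -3.92) and *Ccl4* (245 and 44, -2.42), and the stress-induced *Gadd45b* (2231 and 1067, -1.06). Over the list, 24 of 38 genes had a lower value in the Tc9 library, with a median log2 ratio of -0.32. Of all 6160 genes, 47.6% had a lower value, and their median was 0.03.

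**Figure D5:**
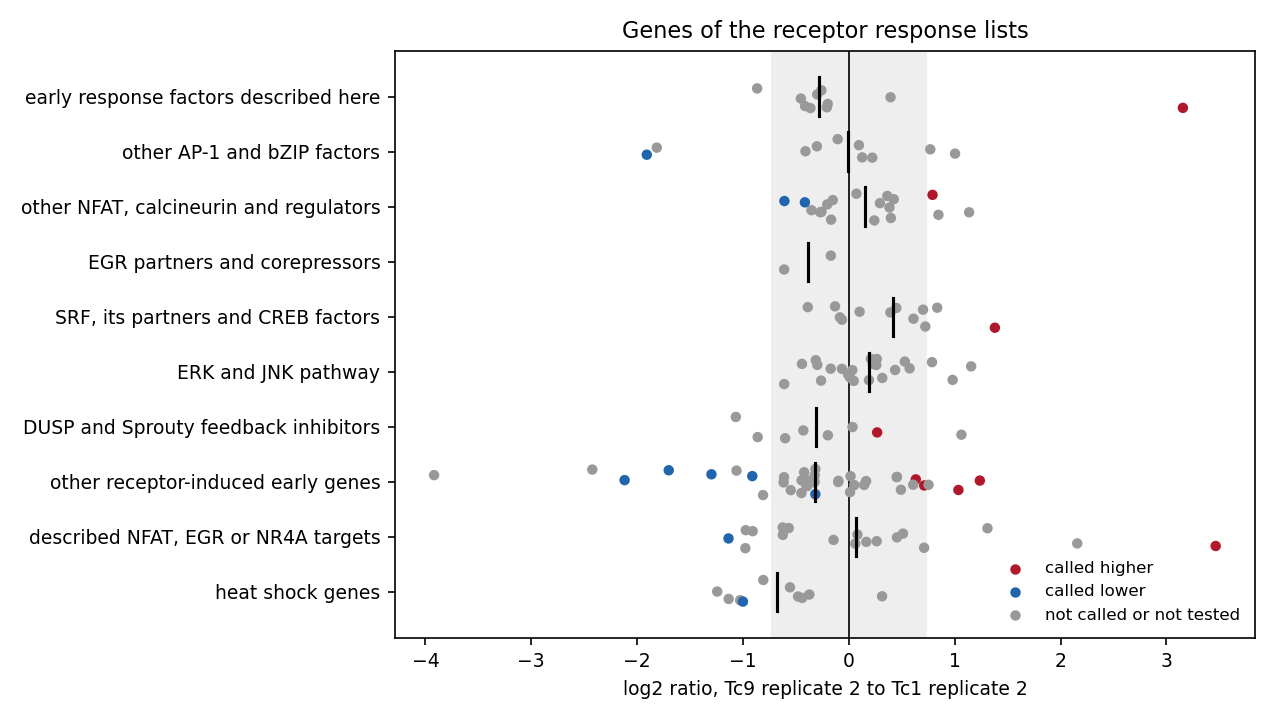
Log2 ratio of Tc9 replicate 2 to Tc1 replicate 2 for each gene of the receptor response lists, 1 point per gene, colored by the call of the test that covers the gene, with a black bar at the median of each list and a gray band for the spread between Tc9 libraries (0.73 to either side of 0). Values on both sides of 0 occur in the larger lists, and most heat shock genes lie below 0.

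Upstream of the factors, the SRF, MEF2 and CREB genes had a median log2 ratio of 0.42 in the replicate 2 libraries, with 8 of 12 higher in Tc9 cells, but the median log2 fold change of the 9 that were tested was 0.07. *Srf* had 2383 counts in Tc1 and 4248 in Tc9 cells (log2 ratio 0.83, 0.76 to 0.91). In 3 libraries 7.51% of all genes were called higher, and in 4 libraries 17.4%. Of the 9 tested SRF, MEF2 and CREB genes, 1 rose. It was *Crem*, a cAMP-responsive factor, which went from 674 to 2121 and 1755 counts (log2 fold change 1.52 ± 0.25, SE, adjusted p = 0.0156 by edgeR with Benjamini-Hochberg adjustment). Of 7 tested genes of the ERK and JNK pathway, edgeR called 0, with 1 higher and 1 lower at an unadjusted p under 0.05 and the same numbers called by DESeq2. *Rasgrp1*, which links the receptor to Ras, was counted 5661 times in Tc1 and 12598 times in Tc9 replicate 2 (log2 ratio 1.15, 1.11 to 1.20). Of 10 tested calcineurin and calcium channel genes, the channel *Orai1* rose, and *Calm2* and the sensor *Stim2* fell. All 3 calls came from the test of 4 libraries, in which 17.4% of all genes were called higher and 16.7% lower, so the edgeR count is near the background. Part of the 10 were tested in 3 libraries. DESeq2 called 3 of the 10 higher and 2 lower. Over all genes it called 201 higher and 177 lower of 1284 in 4 libraries, and 217 and 121 of 2622 in 3. At an unadjusted p under 0.05, edgeR had 3 of the 10 higher and 3 lower (699 of 2622 genes in 3 libraries). Among the feedback inhibitors of ERK, *Spred1* rose in the test of 4 libraries with edgeR (adjusted p = 0.0435, Benjamini-Hochberg) but not with DESeq2 (adjusted p = 0.0541), while *Spry1* (202 and 424 counts) and *Spry2* (170 and 80) had opposite ratios in the replicate 2 libraries.

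Of 10 tested genes that NFAT, EGR or NR4A proteins are described to regulate in T cells, 1 rose, 1 fell and 8 did not pass the test. With 6 of them tested in 3 libraries (10.7% of all genes called) and 4 in 4 libraries (34.1%), this edgeR count is near the background. DESeq2 called 2 higher and 2 lower, beside 338 of all 2622 genes called in 3 libraries. In 4 libraries it called 201 higher and 177 lower of all 1284 genes. At an unadjusted p under 0.05, edgeR had 4 of the 10 higher and 2 lower (699 of 2622 genes in 3 libraries). *Gpr83*, an orphan receptor gene, rose from 29 counts in the Tc1 library to 251 and 340 in the Tc9 libraries, a log2 fold change of 3.34 ± 0.36 (SE, adjusted p = 0.00477 by edgeR with Benjamini-Hochberg adjustment) close to that of *Egr2*. *Tnfrsf4*, which encodes the costimulatory receptor OX40, had 1798 and 8019 counts in the replicate 2 libraries (log2 ratio 2.16, 2.08 to 2.23). Genes of inhibitory receptors in the list did not share a direction in the replicate 2 libraries. *Pdcd1*, which encodes PD-1, had 517 and 262 counts (-0.97, -1.19 to -0.77), while *Lag3* had 4455 and 11034 (1.31, 1.26 to 1.36) and *Tigit* 1423 and 1949 (0.45, 0.36 to 0.55). The test called neither *Lag3* nor *Tigit*.

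Heat shock genes, only some of which cells switch on under stress, had mostly lower values in Tc9 cells. Of 10 that passed the filter in the replicate 2 libraries, 9 had a lower value in Tc9 replicate 2 (47.6% of all genes). The median log2 ratio was -0.68, and the summed level was 15538 CPM in Tc1 and 10226 in Tc9 cells. Most of that sum was *Hspa8* (6883.1 and 4680.6 CPM) and *Hsp90ab1* (4931.5 and 3633.5 CPM). *Hspa1a* (1.98 and 0.80 CPM) and *Hspa1b* (4.52 and 3.47 CPM) added little to it. Of 9 tested, 1 fell (3.2% of all genes were called lower in 3 libraries), *Hsp90aa1*, by 0.87 on the log2 scale (adjusted p = 0.0481, edgeR with Benjamini-Hochberg adjustment). DESeq2 called 3 of the 9 lower, and 4 had a lower value at an unadjusted p under 0.05 in edgeR. The 8 members with lower values and 9 of these 10 genes thus had ratios of the same sign, and the part of heat shock genes in the members' values was not tested.

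Markers of the sorted cells were present in every library that covers them. The 11 T cell genes summed to 3505 CPM in Tc1 replicate 2 and 3434 in Tc9 replicate 2. Of 10 tested, *Cd3e* and *Cd3g* rose by 0.73 and 0.49 on the log2 scale, *Cd2* and *Cd5* fell by 0.44 and 0.61, and 6, among them *Cd8a*, were not called (edgeR with Benjamini-Hochberg adjustment). Of 8 melanoma markers, *Mlana*, *Tyrp1*, *Dct* and *Sox10* were not listed, and the other 4 summed to 2.64 and 4.44 CPM. The 12 listed myeloid markers summed to 30.3 CPM in Tc1 and 94.8 in Tc9 replicate 2. Most of that sum was *H2-Ab1*, which had 532 counts in the Tc1 library and 1785 and 2314 in the Tc9 libraries, and 6 of the 12, among them the defining macrophage genes *Csf1r*, *Adgre1* and *C1qa*, had at most 3 counts in both replicate 2 libraries. The B cell markers summed to 5.41 and 15.5 CPM, nearly all of it *Cd79b* (155 counts in the Tc1 library, 380 and 473 in the Tc9 libraries), while *Ms4a1* had at most 4 counts in any library. NK cell markers summed to 94.8 and 60.1 CPM, mostly *Eomes*, which T cells also express, and stromal and endothelial markers to 14.6 and 14.8 CPM. The test called *H2-Ab1*, *Cd68* and *Cd79b* higher in Tc9 cells, the direction of *Egr2*, and their part in the *Egr2* value was not tested.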

How the data were processed

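RNA-Seq of sorted tumor-infiltrating Tc1 and Tc9 cells was analyzed, 2 libraries per group as the labels number them. The authors deposited expected counts per gene, not normalized, and FPKM values, which they scaled by transcript length and library size. The labels name mm10, and the aligner and counting program are not given in the sources used here. A last, incomplete line was dropped from 3 tables, genes not listed within the reach of a table were taken as 0, and gene lengths were used only through FPKM. Rows with no symbol held 7.30% of the counts of Tc9 replicate 2.

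Depth was worked out from how count and FPKM compare in genes of 500 or more counts whose length is the same in both tables, relative to Tc9 replicate 2, since a table that stops early does not sum to the depth of its library. Expected counts were rounded and tested with edgeR 4.0.16 in R 4.3.3 (quasi-likelihood test, two-sided, filterByExpr with a minimum count of 10, TMM factors from the range of all 4 libraries, Benjamini-Hochberg adjustment, threshold 0.05). In the test of 3 libraries, 1 residual degree of freedom among samples was combined with the trend over all genes. Log2 ratios used a prior count of 2 and 95% Wilson intervals, and intervals of FPKM were exact Poisson intervals. DESeq2 1.42.0 and limma 3.58.1 were alternatives, and the script was tested on simulated counts. Chi-square per gene was 4.47 between the Tc1 libraries and 42.6 between those of Tc9, both beyond sampling noise. Same-numbered libraries did not deviate together (correlation -0.06).

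All 10 factors were named, and of each list the genes called, up to 3 per direction by size, or past 2-fold with at least 50 counts where only the replicate 2 libraries cover them. *Fosl1*, *Fosl2*, *Jund*, *Atf3*, *Nab1*, *Nab2*, *Nfatc2*, *Nfatc3*, *Srf*, *Pdcd1*, *Lag3*, *Tigit*, *Cd3e*, *Cd3g*, *Cd2*, *Cd5*, *Cd8a*, *Ier5*, *Btg2*, *Zfp36l2*, *Hspa8*, *Hsp90ab1*, *Hspa1a*, *Hspa1b* and *Il9* were chosen with their values already seen. The factors and lists were chosen with earlier results of these data known. A few listed genes are not reported here by name.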

Additional observations from a re-analysis of the deposited data

How the results depend on the processing

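Of 159 values recomputed under alternatives for the factors and counts reported, 132 stayed as they were in direction and call, 26 moved, 1 was weaker and 0 reversed. The weaker one was *Egr2* without a filter on low counts, with a log2 fold change of 3.02 and an adjusted p of 0.202. Over all alternatives its log2 fold change lay between 2.49 and 3.15 and its adjusted p between 3.89e-22 and 0.202. Without 1 Tc9 library it was 2.84 to 3.15. The other 6 tested factors were below 0 under every alternative run and never passed the threshold, with adjusted p of 0.128 to 0.896.

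Without the filter, 0 genes were called higher and 0 lower in 3 libraries, against 197 and 84, with 3429 genes in the fit in place of 2622. Scaling by library size alone gave 371 and 163, and TMM factors from the 3-library range 328 and 211. In 4 libraries, 224 genes higher and 214 lower became 130 and 110 without the filter, and 72 to 405 and 39 to 405 when 1 library was left out, so that an arm held 1 library assumed to vary like the others. Genes of the receptor lists called higher, 8, became 1 without the filter and 14 with library size alone, and those called lower, 9, became 2 without the filter.

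Between the replicate 2 libraries, the log2 ratio of *Nr4a3* was -0.62 on log2(FPKM + 1) and -0.68 on log2(FPKM + 0.1). Both are smaller in size than the Tc9 spread of 0.73, which was taken on log2 CPM and not on FPKM. The log2 ratio of *Egr2* was 2.64 on log2(FPKM + 1), and that of *Junb* -0.51 with Tc9 replicate 1 averaged in. Genes past 2-fold, 647 higher and 291 lower, became 1275 and 770 at 1.5-fold, and 971 higher without the filter. With the replicate number as a block, the 4-library fit called 231 higher and 213 lower, and 406 calls were shared with the fit without it, but the numbers are not known to pair the libraries. No paired analysis was possible for the factors because the covering libraries share 1 replicate number. Low counts limit *Fos*, which had 16 to 22, and a single Tc1 library limits every factor.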
